A study of Mus musculus with 29 samples.

Results

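The comparison of anti-CTLA4 alone with no antibody on day 35 (5wk) was analysed over all genes of the deposited count table. Its members were the libraries that the labels place in those groups, 4 anti-CTLA4 and 5 untreated libraries, 9 of the 29 in the series. Each library came from 1 female C57BL/6J mouse, 5 to 6 weeks old, that received an intraperitoneal (IP) injection of YTN16 cells, a mouse gastric cancer (GC) line, on day 0. The anti-CTLA4 mice received the antibody IP at 5 mg/kg on day 5 and again on days 8, 12, 21 and 28, and the untreated mice received PBS in its place. No other agent is named for either group. An anti-CTLA4 mouse that died before autopsy was left out by the authors, so that group holds the survivors. The labels call the samples tumor tissue, whereas the methods describe stripped peritoneum with or without nodules, and both groups are of 1 cell line in 1 strain.

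CTLA4 is an inhibitory receptor of activated and regulatory T cells (Tregs). It competes with the costimulatory receptor CD28 for the ligands CD80 and CD86 on antigen-presenting cells, and an antibody that occupies CTLA4 leaves more ligand for CD28. Such antibodies act on a protein, so that the level of Ctla4 mRNA is no check of the treatment.

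No gene differed between anti-CTLA4 and untreated mice past the threshold. Of 15781 genes with enough counts, 0 (0%) had an adjusted p under 0.05 by edgeR's quasi-likelihood test with Benjamini-Hochberg adjustment, and the smallest adjusted p was 0.999792. At an unadjusted p under 0.05 there were 128 genes (0.811%), 46 of them higher (0.291%) and 82 lower (0.52%) with anti-CTLA4. With a fold over 2 as well there were 33 (0.209%), 12 higher (0.076%) and 21 lower (0.133%). Where no gene differs, a calibrated test passes a share of about 0.05 at an unadjusted p under 0.05. The 0.811% by p alone lies under that share, for a cause that was not tested. These counts are therefore not a measure of how few genes differ. DESeq2 and limma-voom on the filtered genes also gave 0 genes by adjusted p, with 188 and 125 genes at the unadjusted threshold. DESeq2 without that filter gave 0 and 263, over 20108 genes. The groups did not overlap in 18 genes on the higher side (0.114%) and 65 on the lower side (0.412%). The volcano plot of all genes shows how few stand above the unadjusted threshold.

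**Figure D1:**
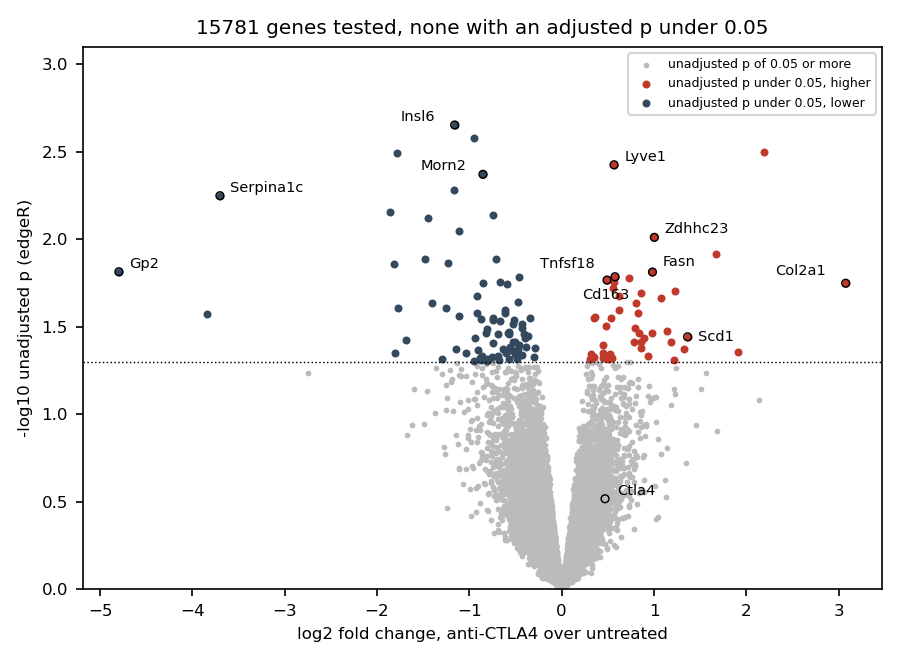
Each point is 1 of the 15781 genes tested, with the log2 fold change of anti-CTLA4 over untreated on the x axis and -log10 of the unadjusted edgeR p on the y axis. The dotted line is the unadjusted threshold, with 46 genes above it on the higher side and 82 on the lower side, and Ctla4 lies well under it.

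The width of the intervals says how closely the difference of a single gene was measured in these 9 libraries. The intervals are not adjusted for the 15781 genes tested, so a difference as large as the half-width need not pass the adjusted threshold. Insl6, at a log2 fold change of -1.16, had an edgeR adjusted p of 0.999792. The median SE of a log2 fold change was 0.229, and the median half-width of its 95% interval was 0.51. For genes at 10 to 100 CPM (the count of a gene scaled to library size, here scaled by TMM factors) the half-width was 0.42, and for genes under 1 CPM it was 1.00. In 12183 genes (77.2%) the whole interval lay within 1 log2 unit of no difference. Between-mouse spread was lower in the treated group, with a median SD of log2 CPM of 0.230 in anti-CTLA4 and 0.368 in untreated libraries over 14413 genes, or 0.274 without untreated 2.

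Total counts ranged from 27574648 to 30012698 in anti-CTLA4 and from 26641402 to 31080946 in untreated libraries, and no pair within a group looked like 1 library deposited as 2. The tissue in the libraries varied more than the depth. Genes of gastric epithelium, the marker of tumor cells, took 0.614%, 0.245%, 0.442% and 0.460% of the counts in anti-CTLA4 mice 1 to 4. They took 0.489%, 0.116%, 0.478%, 0.453% and 0.438% in untreated mice 1 to 5. Untreated 2 was the lowest of the 9, and the other 4 untreated libraries lay inside the anti-CTLA4 range.

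Skeletal muscle genes took 4.29%, 15.9%, 11.0% and 10.5% of the counts in anti-CTLA4 mice 1 to 4. Their share in untreated mice 1 to 5 was 7.10%, 21.6%, 8.64%, 13.9% and 6.33%. The scatter of muscle against gastric epithelium places untreated 2 at one end and anti-CTLA4 1 at the other. The first principal component, 54.4% of the variance, had the same ends, with muscle genes such as Mylk4 and Casq1 on the side of untreated 2 and intestinal genes such as Alpi, Sis and Fabp1 on the side of anti-CTLA4 1. The second component (16.2%) set untreated 4 at -53.9 against -7.82 to 15.2 for the other 8. In bulk tissue, fewer cells of a type and less RNA per cell cannot be told apart.

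**Figure D2:**
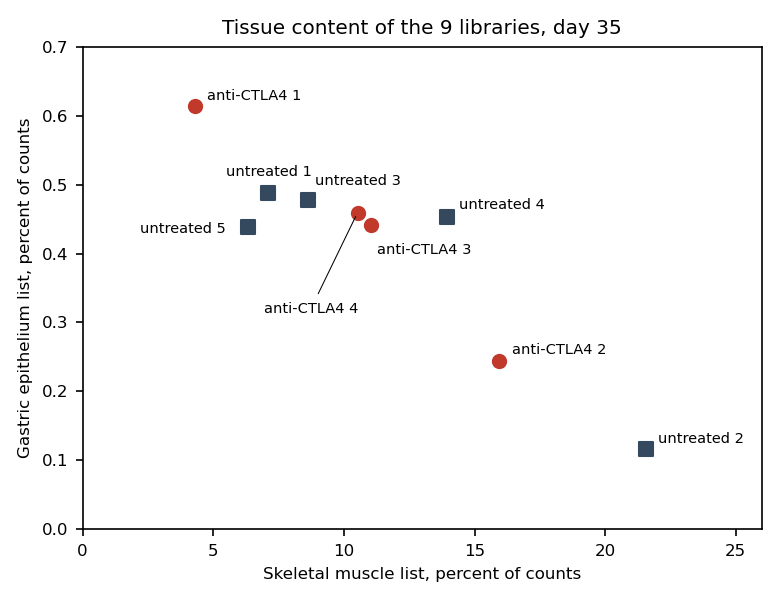
Each point is 1 library, anti-CTLA4 as red circles and untreated as dark squares, with the share of its counts in the skeletal muscle list on the x axis and in the gastric epithelium list on the y axis, both in percent. Untreated 2 has 21.6% muscle and 0.116% gastric epithelium, and anti-CTLA4 1 has 4.29% and 0.614%.

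Results were therefore also computed without untreated 2, without untreated 4, and without both. The count of genes by adjusted p was 0 each time. At the unadjusted threshold it was 337 without untreated 2, 114 without untreated 4 and 522 without both. Without untreated 4 the share of higher genes among these was 57.0%, against 35.9% with all 9 libraries.

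The target of the antibody, Ctla4, lies on chromosome 1 at 60887000-60915832, plus strand (GRCm38). It measured 1.88, 2.07, 3.92 and 1.09 CPM in anti-CTLA4 mice 1 to 4, from 34 to 117 counts. The untreated mice measured 2.03, 0.993, 1.47, 2.75 and 0.846 CPM. The groups overlapped, with the highest value in anti-CTLA4 3 and the lowest in untreated 5. Anti-CTLA4 over untreated gave a log2 fold change of 0.47 (95% interval -0.49 to 1.43), which includes no difference and a doubling. It was 0.05 without anti-CTLA4 3, 0.30 without untreated 5 and 0.74 without untreated 4.

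Of the receptors and ligands that share this axis, Cd28 measured 1.82, 4.65, 2.95 and 2.51 CPM in anti-CTLA4 mice and 1.58, 3.93, 2.00, 1.10 and 1.88 CPM in untreated mice. Mouse 2 of each group had the highest value of its group, and these are the libraries with the highest muscle share of each group, whose part in the result was not tested. The log2 fold change of Cd28 was 0.51 (-0.35 to 1.37), with 0.21 without anti-CTLA4 2 and 0.85 without untreated 2. The ligand genes Cd80 and Cd86 had log2 fold changes of 0.19 (-0.39 to 0.76) and -0.07 (-0.57 to 0.44).

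Foxp3, the transcription factor that defines Tregs, measured 3.20, 5.33, 4.46 and 2.83 CPM with anti-CTLA4 and 3.03, 3.88, 2.88, 3.13 and 1.63 CPM without. Anti-CTLA4 2 and 3 lay above every untreated library, and anti-CTLA4 1 and 4 lay within their range. The log2 fold change of Foxp3 was 0.44 (-0.19 to 1.08), and it was 0.27 without anti-CTLA4 2, 0.29 without untreated 5 and at most 0.57 when any 1 library was left out. Foxp3 overlaps Ppp1r3f and Ccdc22 on the opposite strand, and no source used here says whether counting used strand. Il2ra, the high-affinity IL2 receptor chain that Tregs carry, had a log2 fold change of 0.21 (-0.44 to 0.87), and 0.02 without anti-CTLA4 2.

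Cd8a, of the coreceptor of cytotoxic T cells, measured 3.89, 2.42, 4.43 and 3.09 CPM with anti-CTLA4 and 3.61, 2.21, 2.97, 5.03 and 3.54 CPM without. The group means were 3.46 ± 0.880 (SD, n = 4) and 3.47 ± 1.04 (SD, n = 5). Its log2 fold change was -0.01 (-0.61 to 0.60), and its sign depended on the alternative. Cd3e, a chain of the T cell receptor complex, was the tightest of these genes in untreated mice, at 2.21 to 2.48 CPM, against 2.35 to 3.58 CPM with anti-CTLA4. This was 0.29 on the log2 scale (-0.15 to 0.73). Cd4 had a value of 0.19 (-0.30 to 0.69).

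Effector genes were near the floor of detection. Ifng had 3, 4, 5 and 3 counts in anti-CTLA4 libraries and 3, 0, 2, 3 and 11 counts in untreated ones, too few to test, and a count of 0 allows up to 3 counts. Prf1, of the pore-forming perforin, measured 0.772 to 1.15 CPM with anti-CTLA4 and 0.296 to 1.35 CPM without. The fold change was 0.59 on the log2 scale (-0.39 to 1.56), the highest of the 19 fixed genes tested, and it was 0.21 without untreated 2 and 4 and 1.08 without untreated 5. Gzmb, of the granule protease granzyme B, had a log2 fold change of -0.14 (-0.85 to 0.56).

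Among the other checkpoint receptors, Pdcd1 (PD1), Lag3 and Tigit had log2 fold changes of -0.21 (-0.74 to 0.31), -0.22 (-0.79 to 0.36) and 0.29 (-0.61 to 1.19). Cd274, the PD1 ligand PD-L1, had 0.04 (-0.37 to 0.44). Cxcl9, an interferon gamma-induced chemokine that attracts T cells, measured 16.8, 45.7, 36.6 and 26.3 CPM with anti-CTLA4. It measured 59.5, 24.0, 43.1, 46.8 and 42.6 CPM without, so that 4 of 5 untreated libraries lay above 3 of 4 anti-CTLA4 libraries. This gave a log2 fold change of -0.46 (-1.14 to 0.22), with -0.26 without anti-CTLA4 1 and -0.70 without anti-CTLA4 2. Il6 and Stat3 had values of 0.02 (-1.14 to 1.18) and 0.13 (-0.23 to 0.48). In each of the 19 genes the groups overlapped and the edgeR adjusted p was 0.999792, and the plot of their intervals shows every one crossing zero.

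**Figure D3:**
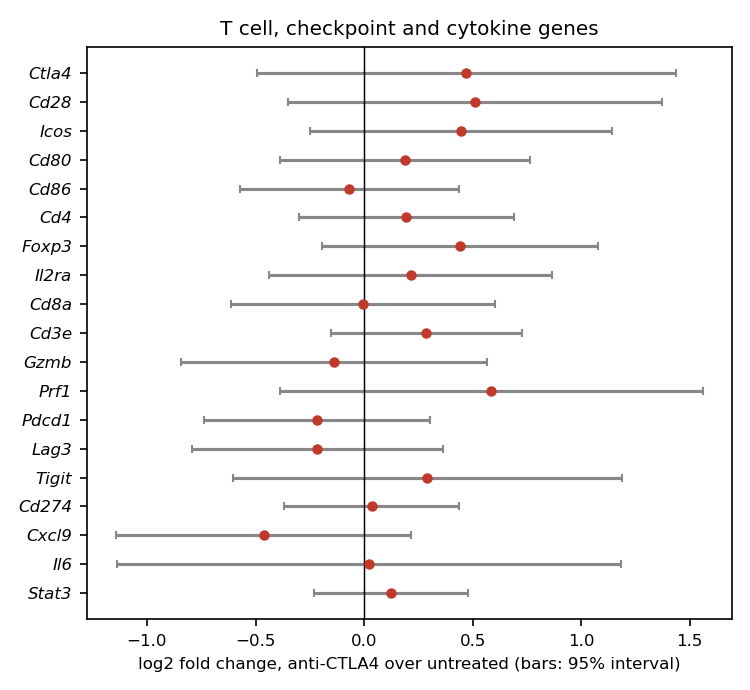
Points are log2 fold changes of anti-CTLA4 over untreated for the 19 tested genes of the fixed list, and bars are 95% intervals from the edgeR fit. All 19 intervals cross zero, from the narrow ones of Stat3 and Cd274 to the wide one of Il6 (-1.14 to 1.18).

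Ratios of counts within a library do not depend on library scaling, and 8 were compared by exact two-sided permutation over the 126 ways to split 4 and 5 libraries. The log2 ratio of Cd8a to Foxp3 was 0.28, -1.13, -0.01 and 0.12 in anti-CTLA4 mice and 0.25, -0.81, 0.05, 0.68 and 1.11 in untreated mice. Mouse 2 of each group was the lowest of its group. The difference between group means was -0.44 (exact permutation p = 0.365, adjusted p = 0.825 over the 8 ratios), and ran from -0.71 without untreated 2 to -0.13 without anti-CTLA4 2. The ratio of Foxp3 to Cd4 differed by 0.23 (exact permutation p = 0.373) and that of Ctla4 to Foxp3 by 0.0042 (exact permutation p = 0.960).

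The ratio of Pdcd1 to Cd3e had the smallest p of the 8. Its log2 values were -0.07, -0.32, 0.57 and 0.38 with anti-CTLA4 and 0.70, 0.27, 0.81, 0.94 and 0.41 without. Anti-CTLA4 1 and 2 lay under all untreated ones, and the groups overlapped. The difference was -0.49 (exact permutation p = 0.0794, adjusted p = 0.635), and it stayed between -0.63 and -0.33 when any 1 library was left out.

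Gene lists were described by how many members were higher with anti-CTLA4 and by their median log2 fold change, beside 45.0% higher and a median of -0.02 over all 15781 genes. No member of any list had an adjusted p under 0.05. Of 30 lists, 10 kept the sign of their median under all 22 alternatives, 8 positive and 2 negative, and 20 did not. Positive throughout were the T cell receptor, Treg, costimulatory receptor, B and plasma cell, macrophage and fibroblast lists. So were IL6 family and JAK-STAT genes (15 of 21 higher, median 0.12, range 0.05 to 0.19). The last was neutrophil-attracting chemokines and IL1 (11 of 12 higher, median 0.17, range 0.02 to 0.37). The negative ones were the interferon gamma response and liver lists. The plot of list medians shows which moved without untreated 2.

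The 8 costimulatory receptors of the list were all higher in the fit of the 9 libraries, with a median of 0.42. Their values were 0.61 for Cd226, 0.58 for Cd27, 0.51 for Cd28, 0.45 for Icos, 0.39 for Slamf1, 0.32 for Slamf6, 0.26 for Tnfrsf9 (4-1BB) and 0.15 for Tnfrsf14. All are receptors of T cells that add to the signal of the T cell receptor or modulate it. None had an unadjusted p under 0.05 (0.811% over all genes), and the smallest was 0.150 for Cd226. With 1 library left out the median ran from 0.23, without anti-CTLA4 2, to 0.52. Without untreated 2 and 4 together 7 of 8 were higher. The count and the median depend on which receptors the list holds. It leaves out the gene of the costimulatory receptor GITR, Tnfrsf18, whose value, given below, was nearer to zero than any of these 8.

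Among 13 Treg genes 8 were higher (median 0.20), with Ikzf4 at 0.54, Ccr8 at 0.46 and Foxp3 at 0.44 on one side and Nt5e at -0.37 and Il10 at -0.21 on the other. That median was 0.06 without anti-CTLA4 3, 0.05 without untreated 5 and 0.02 with the replicate number as a block. Among 15 T cell receptor and signalling genes 11 were higher (median 0.15), from -0.46 for Cd3g to 0.53 for Cd6. Trac, Trbc1 and Trbc2 of that list had no row under these symbols in the count table. Of the 12 cytotoxic genes tested, 5 were higher (median -0.05). Of the 11 inhibitory receptors 8 were higher, with a median of 0.14, which was -0.05 with 5 higher without untreated 2. With 1 library left out the T cell receptor median ran from 0.07 to 0.29 and the cytotoxic median from -0.13 to 0.07.

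Interferon-induced genes had list medians slightly under zero in the fit of the 9 libraries. Of 22 genes of the interferon gamma response, 6 were higher, and the median was -0.04, close to the -0.02 of all genes. The chemokine gene Cxcl10 had the smallest unadjusted p of the list, 0.0807, with 8.15 to 13.8 CPM with anti-CTLA4 and 11.2 to 21.97 CPM without and a log2 fold change of -0.46 (-0.99 to 0.07). With 1 library left out the median ran from -0.14, without untreated 2, to -0.0056, without untreated 1. Without untreated 2 and 4 it was -0.19, with 2 of 22 higher. Of 19 type I interferon-stimulated genes 6 were higher (median -0.09), with Isg15 at -0.52 (-1.07 to 0.03), Ifit1 at -0.40 (-0.80 to 0.01) and Oas3 the highest at 0.43. With 1 library left out that median ran from -0.22, without untreated 2, to 0.0071, without untreated 3, where 10 of 19 were higher. Nlrc5 and Ciita, transactivators of MHC class I and class II genes, had values of 0.12 (-0.42 to 0.66) and 0.21 (-0.33 to 0.75).

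For MHC class II presentation 10 of 11 genes were higher (median 0.15), but 5 of 11 and -0.0078 without untreated 2, and its median was -0.03 without anti-CTLA4 2. For MHC class I presentation 4 of 12 were higher (median -0.04), and 1 of 12 and -0.16 without untreated 2. H2-Aa and H2-Ab1, the chains of the I-A class II molecule, had log2 fold changes of 0.19 and 0.11.

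**Figure D4:**
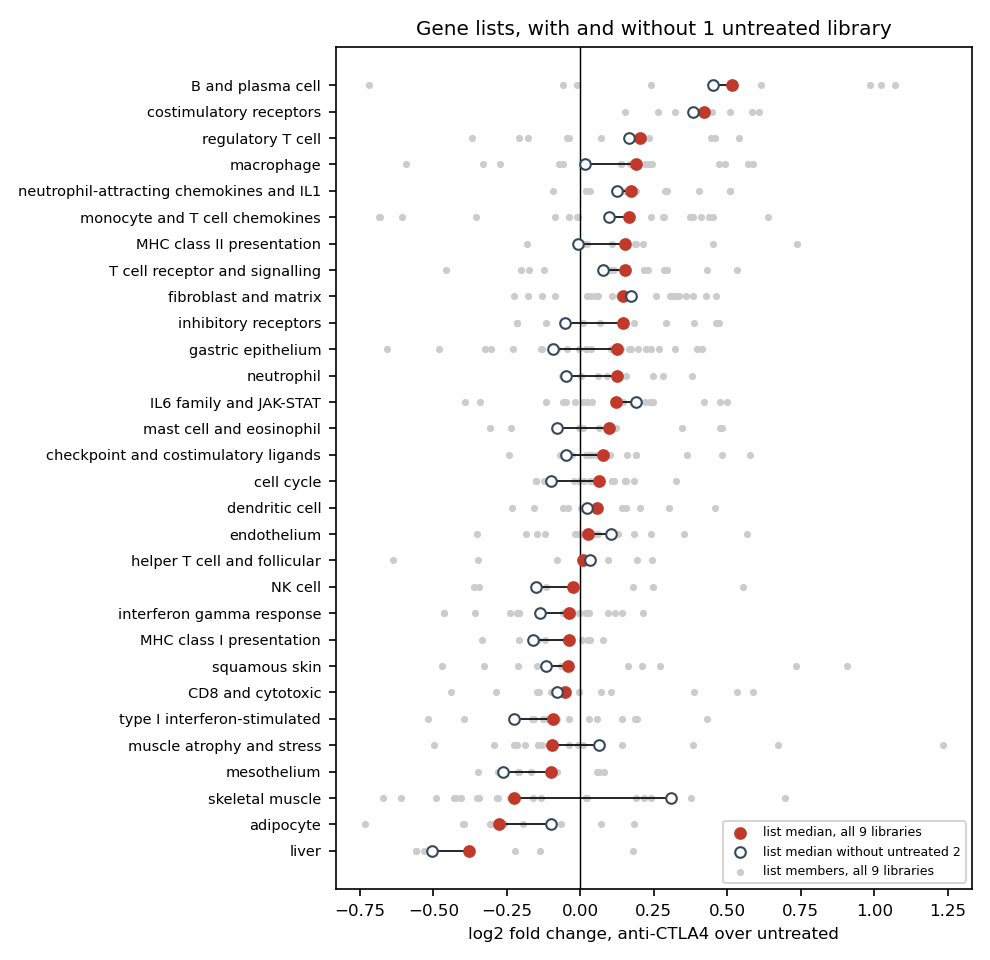
Each line is a gene list, with the log2 fold change of anti-CTLA4 over untreated on the x axis, grey points for the members, a filled red circle for the median over all 9 libraries and an open circle for the median without untreated 2. The costimulatory receptor median is 0.42 and 0.38 in these fits, though 0.23 without anti-CTLA4 2, and the skeletal muscle median goes from -0.23 to 0.31.

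Markers of B cells and plasma cells had the highest list median over the 9 libraries, 0.51, with 6 of 9 tested genes higher. It was 0.28 without anti-CTLA4 1, under that of the costimulatory receptors, 0.34 without untreated 3 and 0.84 without untreated 4. The immunoglobulin constant-region genes of the list, such as Ighm, Igha and Igkc, had no row under these symbols in the count table. Jchain, which joins IgA and IgM polymers, measured 184.7, 43.3, 115.9 and 98.9 CPM with anti-CTLA4 and 27.8, 5.60, 40.6, 153.8 and 35.9 CPM without. All 4 anti-CTLA4 libraries lay above 4 of the 5 untreated ones, and untreated 4 lay above 3 of the 4. Its log2 fold change was 1.07 (-0.53 to 2.67), with 2.01 without untreated 4 and 0.71 without anti-CTLA4 1. Cd79a, of the B cell receptor complex, had a value of 0.99 (-0.14 to 2.12), while Ms4a1 (CD20) had -0.06 and Tnfrsf17, a plasma cell receptor gene, had -0.72. Jchain and Cd79a were picked out after their values were seen.

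Of 21 macrophage genes 16 were higher (median 0.19), and 13 were higher without untreated 2 (median 0.02). Cd163, the scavenger receptor for haemoglobin-haptoglobin complexes, was the 1 member with an unadjusted p under 0.05. It measured 103.9, 102.0, 93.6 and 77.0 CPM with anti-CTLA4 and 91.2, 54.3, 59.3, 60.2 and 69.5 CPM without. Only untreated 1 reached the anti-CTLA4 range. Its log2 fold change was 0.49 (SE 0.174, edgeR unadjusted p = 0.0171, adjusted p = 0.999792), and 0.36 without untreated 2 and 4. Cd163 lies on chromosome 6 at 124304656-124330527, plus strand.

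Lyve1, the hyaluronan receptor of lymphatic endothelium that some tissue macrophages also carry, measured 60.2, 55.2, 42.4 and 58.3 CPM with anti-CTLA4. It measured 42.9, 31.4, 42.0, 33.6 and 32.4 CPM in untreated mice, so that the groups overlapped only by anti-CTLA4 3 lying under untreated 1. Its log2 fold change was 0.57 (SE 0.153, edgeR unadjusted p = 0.00375, adjusted p = 0.999792), with 0.46 without untreated 2 and 4 and 0.51 to 0.67 when any 1 library was left out. It lies on chromosome 7 at 110850607-110863239, minus strand. It was the 1 gene of 15 in the endothelium list with an unadjusted p under 0.05. Other lymphatic genes, Prox1 and Flt4, had values of 0.35 (-0.34 to 1.04) and 0.06 (-0.30 to 0.41), and the pan-endothelial Pecam1 had -0.02. Of macrophage genes often found with Lyve1, Mrc1, Timd4 and Folr2 had values of 0.47 (-0.15 to 1.10), 0.59 (-0.38 to 1.56) and 0.19 (-0.50 to 0.87). These companions were picked after their values were seen.

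Several lists of other tissues moved with untreated 2 and also with anti-CTLA4 1, and the adipocyte list with untreated 4. In the adipocyte list 2 of 12 genes were higher (median -0.28). This was 7 of 12 and 0.05 without untreated 4, and 12 of 12 and 0.48 without untreated 2 and 4. In gastric epithelium 19 of 29 genes were higher (median 0.13). This was 5 of 29 and -0.09 without untreated 2, and 14 of 29 and -0.02 without anti-CTLA4 1. Cldn18, a gastric tight-junction gene, measured 65.4, 27.5, 45.0 and 53.1 CPM with anti-CTLA4 and 43.7, 20.6, 57.4, 46.9 and 48.5 CPM without. Mouse 2 of each group was the lowest. In skeletal muscle 7 of 22 genes were higher (median -0.23). This was 19 of 22 and 0.31 without untreated 2, and 11 of 22 and -0.0072 without anti-CTLA4 1. Without untreated 2 and 4 it was 22 of 22 and 0.77. Cell cycle genes had 12 of 17 higher, 4 of 17 without untreated 2 and 7 of 17 without anti-CTLA4 1.

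The fibroblast and matrix list kept its sign, with 17 of 21 genes higher (median 0.14) and medians between 0.11 and 0.26 over the alternatives. Tnc, of the matrix protein tenascin C, was the highest at 0.46, with Col5a1 at 0.43, Postn at 0.38 and Col1a1 at 0.34. Acta2 was the lowest of the 4 lower members, at -0.23. No member of the list had an unadjusted p under 0.05. Of 6 liver genes 1 was higher (median -0.38), and 3 were higher without untreated 4 (median -0.04). The liver median was -0.09 without anti-CTLA4 2. Exocrine pancreas left 1 gene to test, and Cela2a, Pnlip, Try4 and Try5 were at 0 counts in all 9 libraries.

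The genes with the smallest p among those whose groups did not overlap were taken as the closest to a difference, 8 in each direction, and their values are a description since the contrast chose them. On the higher side, Zdhhc23, a protein palmitoyltransferase gene, measured 3.39, 2.74, 2.85 and 3.38 CPM with anti-CTLA4 and 2.24, 1.40, 2.10, 0.719 and 1.19 CPM without. Its log2 fold change was 1.00 (0.30 to 1.71). The other 7 on that side had values between 0.30 (B4galt5) and 0.58 (Tnfsf18).

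Tnfsf18, the ligand of the costimulatory receptor GITR, lies on chromosome 1 at 161494655-161505290, plus strand. It measured 4.70, 4.29, 4.02 and 5.08 CPM with anti-CTLA4 and 3.36, 2.71, 3.01, 2.28 and 3.76 CPM without. All 4 treated libraries were above all 5 untreated ones. The log2 fold change was 0.58 (SE 0.203, edgeR unadjusted p = 0.0164, adjusted p = 0.999792), and 0.42 without untreated 2 and 4. The GITR gene, Tnfrsf18, had a value of 0.07. The remaining 6 were Pdp2, a phosphatase gene that activates pyruvate dehydrogenase (0.57), Cnksr2, a scaffold of Ras signalling (0.53), Zfyve28 (0.50), the ubiquitin ligase gene March3 (0.43), Ccdc71l (0.35) and B4galt5, of glycosphingolipid synthesis (0.30).

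On the lower side, Insl6, of the relaxin and insulin family, had the smallest p of all genes. It lies on chromosome 19 at 29321344-29325356, minus strand, with no other annotated gene overlapping it. It measured 2.07, 1.63, 2.08 and 1.77 CPM with anti-CTLA4 and 5.70, 2.21, 3.38, 4.86 and 4.92 CPM without. Insl6 in untreated 2 lay nearest to the treated range. Its log2 fold change was -1.16 (SE 0.289, edgeR unadjusted p = 0.00222, adjusted p = 0.999792), and it stayed between -1.32 and -1.03 when any 1 library was left out.

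Morn2 measured 2.26, 2.62, 2.65 and 2.67 CPM with anti-CTLA4 and 3.42, 5.64, 3.63, 6.21 and 4.17 CPM without (log2 fold change -0.85, -1.37 to -0.33), and it was at -0.56 without untreated 2 and 4, which held its 2 highest values. The other 6 were 4930432K21Rik (-0.95), Frmd7 (-0.74), Fbxo36 (-0.66), the cilium gene Cfap43 (-0.62), the potassium channel gene Kcnh2 (-0.47) and 2210013O21Rik (-0.46). Reads of overlapping genes could enter the counts of several of these, since Morn2 overlaps Dhx57, Fbxo36 overlaps Trip12 and Kcnh2 overlaps Gm15589 on the opposite strand, and Cfap43 overlaps Itprip on its own strand. The plot of the leading genes by library shows the gap between groups to be narrow in most of them.

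**Figure D5:**
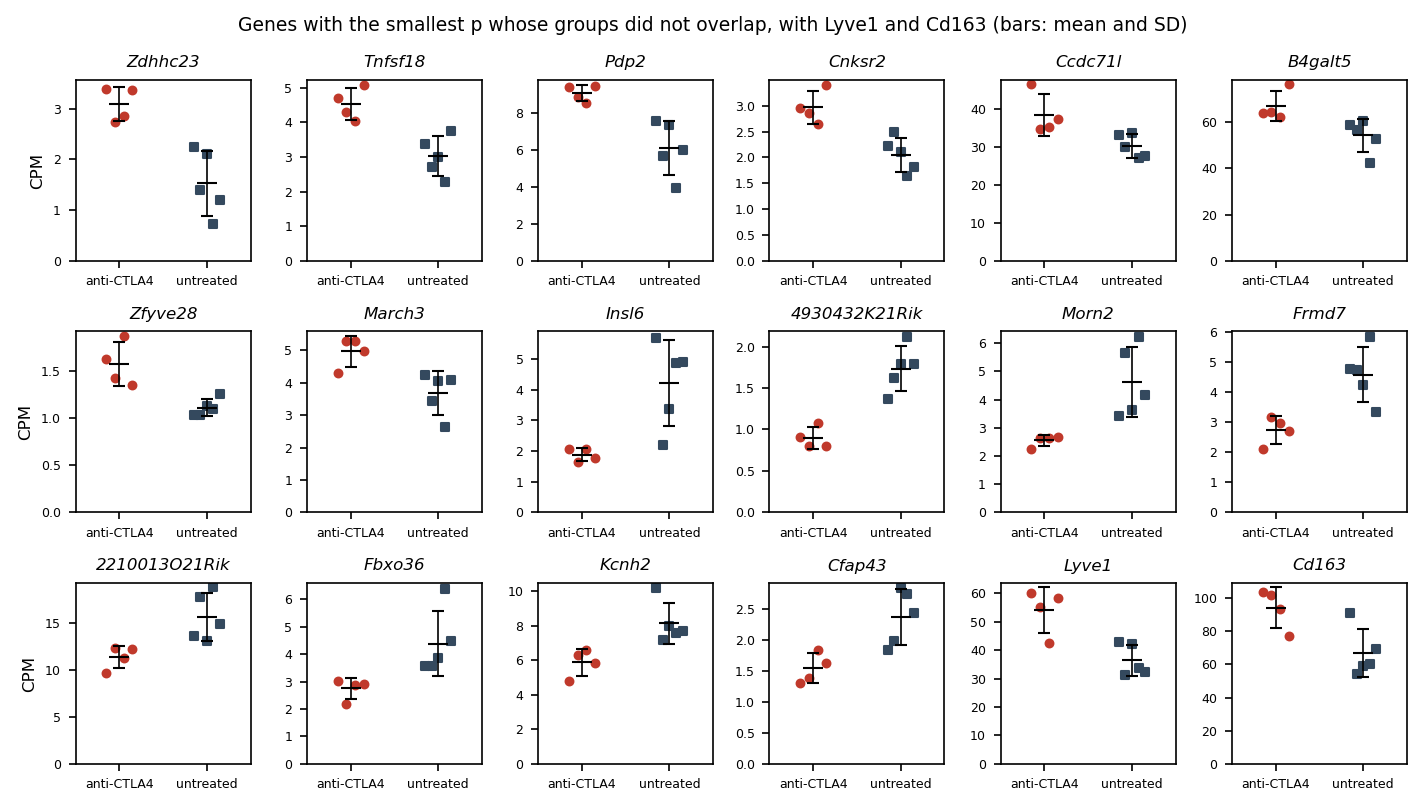
Panels show CPM (y axis, from 0) in each anti-CTLA4 library (red circles) and untreated library (dark squares), with the mean and SD as bars, for the 16 genes chosen by p and separation and for Lyve1 and Cd163. The groups are apart in the first 16 panels, by which they were chosen, and overlap by 1 library in the Lyve1 panel.

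Anti-PD1 mice of the same day (5 libraries) were compared with the same 5 untreated libraries, so these comparisons share their controls and are not independent. The paper reports that an anti-PD1 mouse was cured and that no anti-CTLA4 mouse was. The sample titles do not mark the cured mouse, and its part in the anti-PD1 values was not tested. Side by side, the log2 fold changes with anti-CTLA4 and with anti-PD1 were 0.57 and 0.48 for Lyve1, 0.49 and 0.61 for Cd163, 0.58 and 0.48 for Tnfsf18, 1.00 and 0.64 for Zdhhc23 and -1.16 and -0.86 for Insl6. Frmd7 had -0.74 with anti-CTLA4 and 0.43 with anti-PD1. For the genes of the antibody targets the values were 0.47 and -0.31 for Ctla4 and -0.21 and -0.08 for Pdcd1. Those of the T cell genes were 0.44 and -0.28 for Foxp3 and -0.01 and 0.07 for Cd8a. No difference between these pairs was tested.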

How the data were processed

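The authors deposited 1 table of raw read counts per gene for all 29 libraries, with 24421 gene symbols, made from 150 bp paired-end reads. The submitters' processing notes name STAR 2.7.0f and featureCounts 1.6.4, whereas the study's methods name STAR 2.5.2b and HTSeq 0.6.1, and the strand setting and annotation are not given in the sources used here. Each library came from 1 mouse. The counts were tested with edgeR 4.0.16 (R 4.3.3), using filterByExpr, TMM factors and the quasi-likelihood test on the 9 libraries, adjusting p by Benjamini-Hochberg across the 15781 genes that passed the filter. The study's own tool, DESeq2 (1.42.0), and limma-voom (limma 3.58.1) were alternatives. CPM values use TMM-scaled library sizes, and ratios add 0.5 to each count. A fold change of genes at very low counts depends on the prior count.

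Named genes were 20 fixed genes, the 8 per direction with the smallest p among genes of at least 1 mean CPM whose groups did not overlap, and list members with an unadjusted p under 0.05, with exceptions said to be chosen after their values were seen, of which 1 gene is not reported here. The members, lists and rules were chosen with earlier results of these data known. Positions are from GENCODE vM21 (GRCm38), which held 23376 (95.7%) of the symbols, and say nothing of the annotation the authors used. The scripts were tested on simulated data. Depth was 26641402 to 31080946 counts per library. Genes of low counts have wider intervals, and the intervals cover the spread between these mice.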

Additional observations from a re-analysis of the deposited data

Results flagged for a closer look

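In 25 of 200 groups of 4 or 5 libraries examined, 1 library lay far from the rest of its group for its range, where chance alone gives about 1 in 20. Of these, 11 were among the 46 groups of genes picked after their values were seen, some for a library that stood out, so the count over all 200 is not to be read against chance. The other 154 groups held 14, a count that is also not to be read against chance. Some of these groups are of genes chosen by the contrast. In several list shares the same library, untreated 2, lay far from the rest of its group. Untreated 2 did so in 7, as the highest for Myh4, a fast myosin gene (69581 CPM), and as the lowest for the percent of counts in gastric epithelium (0.116%), MHC class I presentation (0.162%), CD8 and cytotoxic genes (0.0012%), mast cells and eosinophils (0.00484%), liver (0.0082%) and exocrine pancreas (0.00209%). Untreated 4 did so in 6, as the highest for Jchain (153.8 CPM), Mzb1 (8.67 CPM), Gp2 (15.3 CPM), Serpina1c (6.00 CPM) and Fkbp5 (203.6 CPM) and as the lowest for Cd80 (0.972 CPM). Untreated 1 was the highest for Kcnh2 (10.2 CPM).

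Anti-CTLA4 1 was the highest for Trim63 (920.4 CPM), Ankrd2 (339.3 CPM) and the percent of counts in muscle atrophy and stress genes (0.354%), and the lowest for Morn2 (2.26 CPM). Anti-CTLA4 2 was the highest for Col2a1 (19.9 CPM) and the lowest for Fbxo36 (2.19 CPM). Anti-CTLA4 4 was the highest for Acly (222.8 CPM), Elovl6 (30.3 CPM) and B4galt5 (76.6 CPM), and the lowest for Tigit (1.13 CPM) and dendritic cell genes (0.0157% of counts).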

How the results depend on the processing

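The count of genes with an adjusted p under 0.05 was 0 under every alternative. The 128 genes at an unadjusted p under 0.05 became 264 with no filter on low counts, 263 with DESeq2 also without that filter, but 188 with DESeq2 on the filtered genes, 240 with all 29 libraries in the fit, 290 and 327 with the gastric epithelium or skeletal muscle score as a covariate, and 91 to 337 with 1 library left out (337 without untreated 2, 291 without untreated 1, 207 without untreated 3, 201 without anti-CTLA4 1). The last DESeq2 fit, the muscle covariate and leaving out both untreated 2 and 4, which gave 522, were chosen after seeing the data. The 33 genes with a fold over 2 as well became 183 with no filter, 124 with DESeq2 without the filter, 47 with DESeq2 on the filtered genes, 7 with at least 10 counts in every library, 50 with the muscle covariate, 106 without both untreated libraries and 31 to 74 with 1 library left out (74 without anti-CTLA4 1, 58 without anti-CTLA4 3, 56 without untreated 2, 52 without untreated 1). The share of higher genes among the 128 was 35.9%, and 46.4% with limma-voom. The cause of these shifts was not tested.

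The replicate numbers of both groups run from 1 in the labels, and the deviations of same-numbered libraries correlated at 0.43, 0.73, 0.32 and -0.07, so that the numbers were not taken as pairs, and 2 of 4 libraries matched their own number best. With the replicate number as a block, 0 genes passed by adjusted p, 370 by unadjusted p (50.5% higher) and 61 with a fold over 2.

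Of 60 named genes tested, 52 had a value under every alternative, and 39 of these kept their direction throughout. Of the other 8, 6 kept it wherever they had a value. Cd8a, at -0.01, was at 0.0058 with DESeq2 and 0.0039 with it on the filtered genes, 0.013 with limma-voom, 0.00070 with no filter, 0.0028 and 0.0049 with all 19 or 29 libraries, 0.027 with the replicate block, 0.033 without untreated 2 and 4, and -0.15 to 0.16 with 1 library left out. With the block, Mt1 and Mt2 were at 0.020 and 0.018. Without both untreated libraries, Cd274 was at -0.14, Il6 at -0.048, Scd2 at -0.23, Srebf1 at -0.0026, Fkbp5 at 0.48, Mt1 at 0.30, Mt2 at 0.22, Myh4 at 0.61, Cldn18 at -0.066 and Ckm at 0.74. With 1 library left out the ranges that crossed zero were -0.29 to 0.040 for Cd86, -0.26 to 0.063 for Gzmb, -0.32 to 0.017 for Lag3, -0.037 to 0.11 for Cd274, -0.21 to 0.63 for Il6, -0.061 to 0.38 for Scd2, -0.70 to 0.43 for Fkbp5, -0.59 to 0.32 for Mt1, -0.33 to 0.20 for Mt2, -0.33 to 1.02 for Trim63, -0.78 to 0.28 for Myh4, -0.052 to 0.33 for Cldn18 and -0.90 to 0.17 for Ckm.

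Among the ratios, Cd8a to Foxp3 was at -0.71 to -0.13 with 1 library left out and -0.19 with group medians. Cd8a to Cd4 was at 0.12 with group medians and -0.36 to 0.013 with 1 library left out. Ctla4 to Foxp3 was at -0.0043 with 2 counts added, -0.13 with medians and -0.25 to 0.19 with 1 left out. Ctla4 to Cd3e was at -0.034 with the replicate block and -0.13 to 0.40 with 1 left out, Icos to Cd3e at -0.070 with medians, -0.031 with the block and -0.031 to 0.33 with 1 left out, and Gzmb to Cd8a at -0.24 to 0.061 with 1 left out.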

Other observations

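Genes of fatty acid synthesis, which make saturated and monounsaturated fatty acids from citrate, stood out on reading the table and were picked after their values were seen. Fasn, the fatty acid synthase gene, measured 204.0, 418.3, 236.2 and 589.9 CPM with anti-CTLA4 and 251.3, 104.0, 198.1, 198.4 and 163.4 CPM without. Anti-CTLA4 2 and 4 were above every untreated library and anti-CTLA4 1 and 3 were inside the untreated range. The log2 fold change was 0.98 (0.23 to 1.74), and 0.64 without anti-CTLA4 4. Scd1, the stearoyl-CoA desaturase gene, had the same 2 libraries on top, at 618.2 and 574.6 CPM against 61.9 to 183.0 CPM in the other 7 (log2 fold change 1.36, 0.11 to 2.62). Acaca and Acly, which supply malonyl-CoA and acetyl-CoA, had values of 0.55 (0.11 to 0.99) and 0.52 (0.01 to 1.03), and those of Scd2, Elovl6 and Srebf1 were 0.10, 0.38 and 0.06. All edgeR adjusted p were 0.999792. Adipocyte genes took 0.208% and 0.187% of the counts in anti-CTLA4 2 and 4, 0.123% and 0.128% in anti-CTLA4 1 and 3, and 0.105% to 0.301% in untreated libraries, and their part in the result was not tested. In anti-PD1 mice against the same untreated libraries the values were 0.98 for Fasn and 1.45 for Scd1.

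A second set, also picked after the values were seen, was high in 1 mouse of each group. Fkbp5, a gene induced by glucocorticoids, measured 201.7 CPM in anti-CTLA4 1 and 203.6 CPM in untreated 4, against 42.1 to 92.7 CPM in the other 7. The metallothionein gene Mt1 was at 403.7 and 453.7 CPM in these libraries and at 117.4 to 267.5 CPM in the others. Trim63, a ubiquitin ligase gene of muscle atrophy, was at 920.4 and 430.3 CPM, against 93.4 to 286.8 CPM. The log2 fold changes between groups were -0.03, -0.09 and 0.67, and none had an unadjusted p under 0.05.

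Some large fold changes at a small unadjusted p came from 1 or 2 libraries. Gp2, of the pancreas and of intestinal M cells, had 363 and 92 counts in untreated 4 and 5 and 0 to 30 in the other 7 (log2 fold change -4.80). Serpina1c had 142 and 48 counts in the same libraries and 2 to 15 in the others (-3.70). Col2a1, the collagen of cartilage, had 500 counts in anti-CTLA4 2 and 4 to 69 in the others, with a log2 fold change of 3.08 that was 0.78 without that library. These 3 genes were picked after their values were seen.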
